A study of Homo sapiens with 18 samples.

Results

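The spliceosomal small nuclear RNAs (snRNAs) are short nuclear RNAs that form the catalytic and recognition core of the spliceosome. They were followed here through 8 genes. RNU4-1 and RNU4-2 encode U4 and RNU5A-1 and RNU5B-1 encode U5, both of the major spliceosome. RNU4ATAC, RNU6ATAC, RNU11 and RNU12 encode U4atac, U6atac, U11 and U12 of the minor spliceosome. The genes were chosen by name, as annotated snRNA genes that are not pseudogene copies, with earlier results of these data known. They are 8 of 1835 snRNA-type genes and of 57865 genes measured.

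The libraries came from HEK293T, a human embryonic kidney cell line that carries the SV40 large T antigen. The 6 groups were extracellular vesicles (EVs) of ATG7-/- cells (clone F2), EVs of ATG12-/- cells (clone D9), EVs of wild-type cells, and the cells of the same 3 genotypes, with 3 biological replicates each. Each knockout was 1 clone, so a property of the clone and the effect of the genotype cannot be told apart. All 6 groups had been kept without serum for 24 h. ATG7, an activating enzyme, and ATG12, a ubiquitin-like protein, belong to the machinery that conjugates LC3 to lipids, and the study asked what that machinery loads into EVs. RNA was total RNA, built into stranded libraries of long RNA, and levels are TPM, each transcript's length-corrected share of its library on a fixed total. TPM keep no record of sequencing depth, so no counting interval can be given.

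In the major spliceosome, U4 travels base-paired to U6 and must be unwound before splicing starts, while U5 holds the exon ends at the splice sites. In the minor spliceosome, which removes a rare class of introns, U11 recognises the 5′ splice site and U12 the branch point, and U4atac and U6atac take the places of U4 and U6. Most spliceosomal snRNAs are made by RNA polymerase II, exported, given a ring of Sm proteins in the cytoplasm at a uridine-rich site, and returned to the nucleus. U6atac is made by RNA polymerase III and carries LSm proteins instead.

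A read of 50 bases from a stretch that copies share cannot be placed by its sequence. The sequences of both U4 genes and U12 are shown for that reason, from the GENCODE 29 transcripts on GRCh38, 5′ to 3′. Capitals in the U4 pair mark the bases at which the copies differ. Capitals in RNU12 mark AATTTTT, the letters of the Sm site searched for.
RNU4-1: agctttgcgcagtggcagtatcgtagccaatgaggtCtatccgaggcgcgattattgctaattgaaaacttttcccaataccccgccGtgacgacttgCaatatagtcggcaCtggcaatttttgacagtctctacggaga
RNU4-2: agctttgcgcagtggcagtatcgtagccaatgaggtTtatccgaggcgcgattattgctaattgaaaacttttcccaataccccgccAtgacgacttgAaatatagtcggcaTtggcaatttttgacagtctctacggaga
RNU12: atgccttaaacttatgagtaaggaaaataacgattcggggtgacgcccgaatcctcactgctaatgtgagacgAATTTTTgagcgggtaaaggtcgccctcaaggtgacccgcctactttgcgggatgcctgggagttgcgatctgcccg

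The U4 genes lie beside each other on the minus strand of chromosome 12, RNU4-1 (ENSG00000200795) at chr12:120293097-120293237 and RNU4-2 (ENSG00000202538) at chr12:120291763-120291903. Each is a single exon of 141 bases. Counted from the 5′ end with the RNU4-1 base first, they differ by C37T, G88A, C99A and C113T, an identity of 97.16%. Each of the 2 U5 genes is 116 bases long.

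The minor spliceosome genes are scattered. RNU4ATAC, of 127 bases, lies at chr2:121530881-121531007 on the plus strand, within introns of CLASP1 on the opposite strand and of AC012447.1 on the same strand. RNU6ATAC, of 126 bases, lies at chr9:134164439-134164564 on the minus strand. RNU11, of 134 bases, lies at chr1:28648600-28648733 on the plus strand, and an exon of AL360012.1 overlaps it on the same strand. RNU12, of 150 bases, lies at chr22:42615244-42615393 on the plus strand, and an exon of Z93241.1 overlaps it on the same strand. No annotated exon lies on the opposite strand of any of the 8 genes.

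The letters AATTTTT were found on the transcribed strand of 7 of the 8 genes (87.5%) and on the opposite strand of none. The gene without them was RNU6ATAC, whose RNA has no Sm site. They start at base 118 in both U4 genes, at base 87 in RNU11, at base 115 in RNU4ATAC and at base 74 in RNU12. Among the 1827 other snRNA-type transcripts, 121 (6.62%) hold these letters on the transcribed strand and 98 (5.36%) on the opposite strand. A match describes the letters and is not evidence of binding.

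Stretches of 50 bases, the length of a read, showed which genes could be told from their relatives. Of the 92 such stretches in RNU4-1, 12 also occur in other annotated transcripts, 11 of them in the pseudogene RNU4-82P, and RNU4-2 shares 1 of 92, with RNU4-1. RNU5A-1 and RNU5B-1 share 9 of 67 with each other, and RNU4ATAC shares none of 78. RNU6ATAC shares 34 of 77, 27 of them with RNU6ATAC2P. RNU11 shares 82 of 85, with AL360012.1 the closest, and RNU12 shares all 101 with Z93241.1. The overlapping transcripts were themselves low. AL360012.1 was listed at 0 in all 18 libraries, and Z93241.1 was above 0 in 1 of 9 EV libraries, at 3.27 TPM, and in 5 of 9 cell libraries, at up to 1.51 TPM. These shares assume reads without errors and say where a read could be placed, not where the deposited quantification placed it.

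Among the 8 genes those of U4 were above 0 most often, in more cell libraries than EV libraries. RNU4-1 was listed at 114.1, 53.7 and 0 TPM in ATG7-/- EVs, at 0, 0 and 72.7 TPM in ATG12-/- EVs, and at 0 in all 3 libraries of wild-type EVs. In cells it was listed at 124.4, 0 and 128.7 TPM in ATG7-/-, at 0, 0 and 93.1 in ATG12-/-, and at 0, 445.1 and 67.4 in wild type. The EVs therefore had it in 3 of 9 libraries and the cells in 5 of 9, and every group that had it in some replicate lacked it in another.

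RNU4-2 was listed at 114.1, 53.7 and 0 TPM in ATG7-/- EVs and at 0 in all libraries of ATG12-/- EVs and wild-type EVs. In cells it was listed at 124.1, 81.0 and 129.3 TPM in ATG7-/-, at 54.0, 0 and 279.4 in ATG12-/-, and at 239.4, 181.3 and 0 in wild type. It was above 0 in 2 of 9 EV libraries and 7 of 9 cell libraries, and ATG7-/- cells were the group with it in every replicate.

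The minor and U5 genes gave almost no signal. RNU5A-1 was above 0 in 2 of 18 libraries, at 109.5 TPM in the third replicate of ATG12-/- cells and at 58.1 TPM in the second replicate of wild-type cells. RNU12 was above 0 in 2 libraries, at 57.2 TPM in the first replicate of ATG7-/- cells and at 42.6 TPM in the second replicate of ATG12-/- cells. RNU5B-1, RNU4ATAC, RNU6ATAC and RNU11 were listed at 0 in all 18 libraries, 4 of the 8 genes. Dividing cells use these RNAs, so a value of 0 is reported as listed and not as absence.

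**Figure D1:**
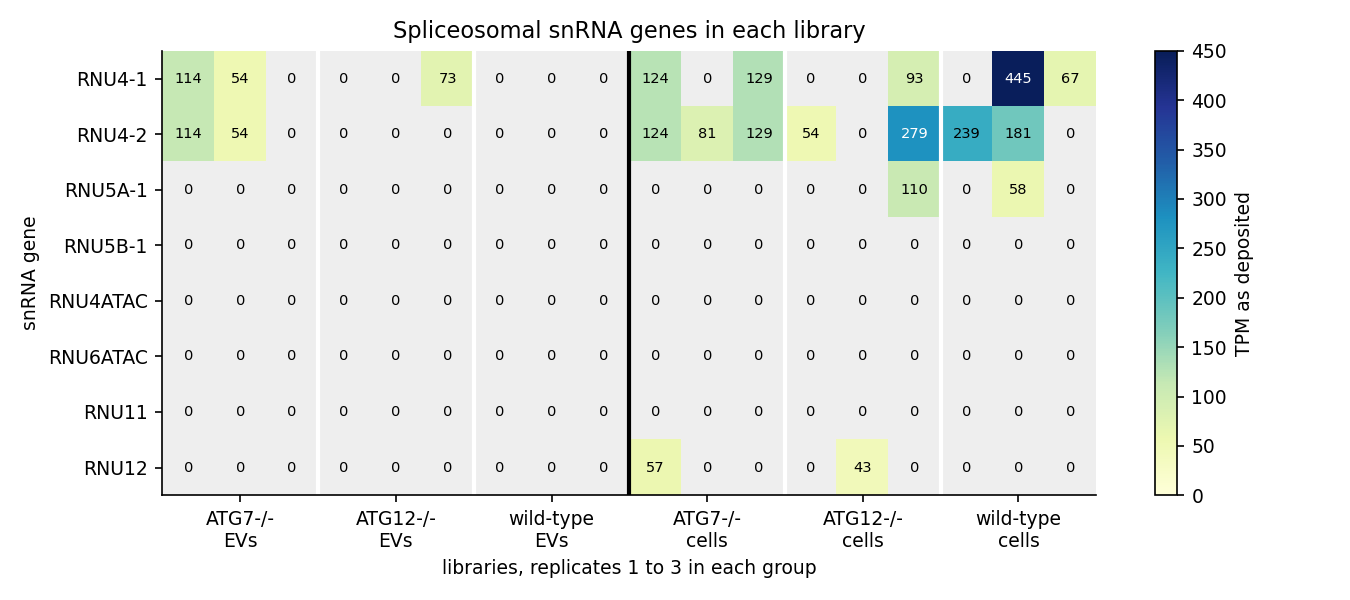
TPM as deposited for each of the 8 snRNA genes (rows) in each of the 18 libraries (columns, 3 replicates a group), with values above 0 printed. The U4 rows hold most of the values, wild-type EVs are 0 in every row, and the rows of RNU5B-1, RNU4ATAC, RNU6ATAC and RNU11 are 0 throughout.

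Counted over genes and libraries, 5 of 72 values were above 0 in EVs (6.94%), from 2 genes and 3 libraries, and 16 of 72 in cells (22.22%), from 4 genes and all 9 libraries. By group, of 24 values each, 4 were above 0 in ATG7-/- EVs, 1 in ATG12-/- EVs and 0 in wild-type EVs. The corresponding counts were 6 in ATG7-/- cells, 5 in ATG12-/- cells and 5 in wild-type cells. The difference between EVs and cells was not particular to these genes. Of the 1827 other snRNA-type genes, 0.657% to 1.15% were above 0 in an EV library and 3.56% to 8.16% in a cell library. Of the 1424 other transcripts of 116 to 150 bases, 1.26% to 2.32% were above 0 in an EV library and 4.35% to 9.34% in a cell library. Over all transcripts, 24204 to 31209 were above 0 in an EV library and 37287 to 49019 in a cell library. The part of this lower detection in the result on snRNAs was not tested.

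**Figure D2:**
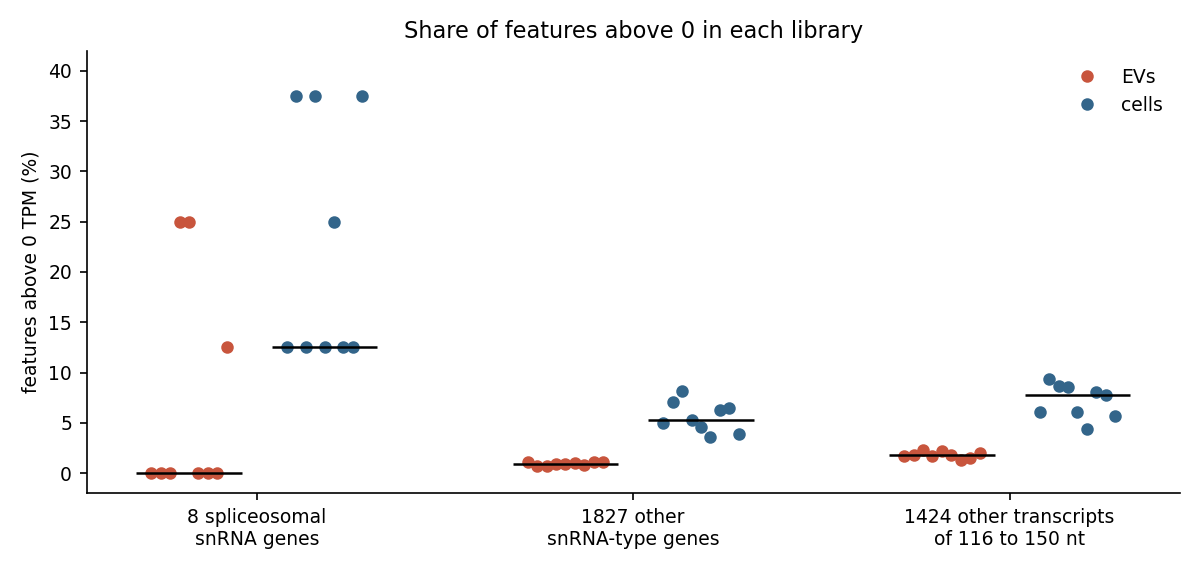
Percentage of features above 0 TPM in each library, for the 8 snRNA genes, for the other snRNA-type genes and for other transcripts of 116 to 150 bases, in EVs (left of each pair) and cells (right), with each point 1 library and each line the median of 9. In the 2 large classes the cell libraries lie above the EV libraries without overlap, while the 8 snRNA genes overlap between EVs and cells.

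The 21 values above 0 were set against other transcripts of the same length in the same library, the 8 genes left out, of which 1 to 6 were above 0. Of the 21, 11 lay below the lowest of those others by more than 10%, 5 lay within 10% of it, and 5 were 2.00, 2.00, 3.15, 3.67 and 9.01 times it. The highest ratio was that of RNU4-1 in the second replicate of wild-type cells, at 445.1 TPM. For transcripts of 141 bases, the U4 genes included, the lowest value above 0 was 53.7 to 5523 TPM in EV libraries and 46.2 to 239.4 TPM in cell libraries. In wild-type EVs it was 644, 80.3 and 218 TPM, with 2, 3 and 2 of 53 transcripts of that length above 0. Such a lowest value is not a detection limit. In the first replicate of ATG7-/- EVs both U4 genes were at 114.1 TPM. The lowest other transcript of that length above 0 was at 9138 TPM there. No transcript of 116 bases was above 0 in any EV library, so U5 shared its 0 in EVs with its whole length class. Since TPM hold no counts, how many reads stand behind these values was not tested.

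The U4 copies often carried the same value. Both were above 0 in 6 libraries, and in 4 of these their values were equal within 1%. In 5 libraries 1 copy was above 0 and the other at 0, and in 7 libraries both were at 0. Summed, U4 stood at 228.2, 107.5 and 0 TPM in ATG7-/- EVs, at 0, 0 and 72.7 TPM in ATG12-/- EVs and at 0 in wild-type EVs. The sums in cells were 248.4, 81.0 and 258.0 TPM in ATG7-/-, 54.0, 0 and 372.5 TPM in ATG12-/- and 239.4, 626.4 and 67.4 TPM in wild type. The cell groups overlapped throughout, and among EVs only the ranges of ATG7-/- and ATG12-/- reached above 0.

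The pseudogene copies annotated for each snRNA family add a measure of how the reads were spread. The 88 U4 copies summed to 0 to 700.0 TPM in EV libraries (median 0) and to 224.6 to 733.3 TPM in cell libraries (median 575.8). Their sum exceeded that of RNU4-1 and RNU4-2 in 4 of 9 EV libraries and in 8 of 9 cell libraries. The 26 U5 copies were at 0 in all EV libraries and summed to 59.8 to 438.7 TPM in cells, above the U5 genes in all 9. In cells, copies of U4atac, U6atac and U11 had values above 0 where the genes were at 0, and for U12 the reverse held. The 17 U4atac copies summed to 0 in EVs and to 0 to 443.1 TPM in cells, and the 41 U6atac copies to 0 to 155.4 TPM in EVs and 0 to 675.4 TPM in cells. The 5 U11 copies reached 53.4 TPM in EVs and 246.7 TPM in cells, while the single U12 copy was at 0 throughout. Whether the reads came from the genes or from the copies cannot be told apart from these values.

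**Figure D3:**
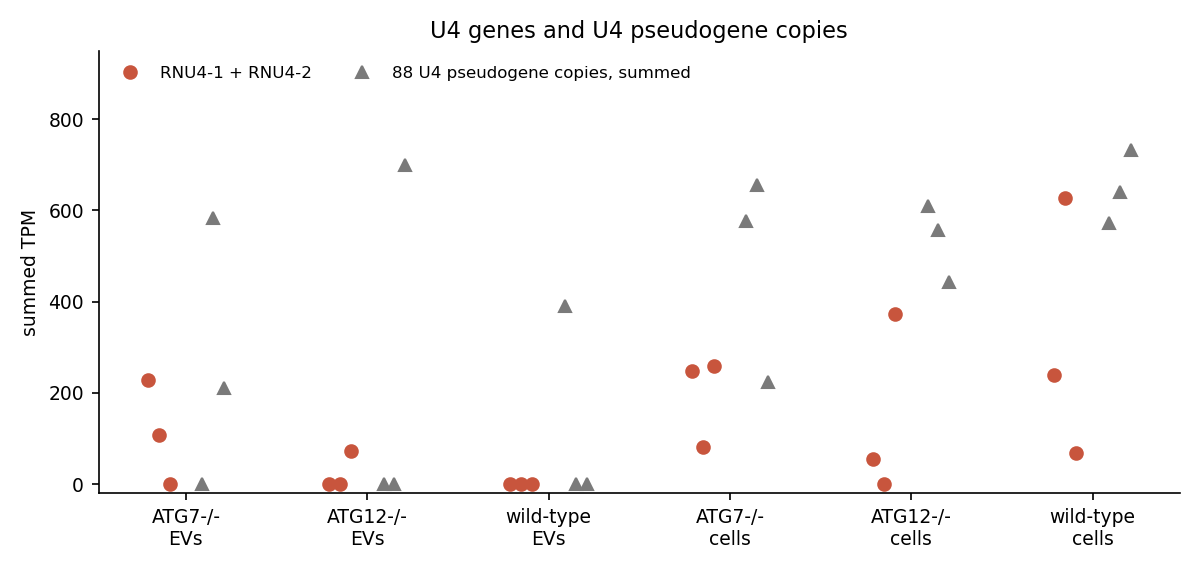
Summed TPM of RNU4-1 and RNU4-2 (circles) and of the 88 annotated U4 pseudogene copies (triangles) in each library of the 6 groups. Copies lie above the genes in 8 of 9 cell libraries, and the genes are at 0 in all wild-type EV libraries.

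EVs were compared with cells over all 3 genotypes, 9 libraries against 9, with limma on log2(TPM + 1) after scaling, and p-values were adjusted by Benjamini-Hochberg over all genes tested. This comparison asks which RNAs are scarcer in vesicles than in the cells that release them, relative to the rest of each library. The filter of at least 1 TPM in at least 3 libraries admitted 2 of the 8 genes, RNU4-1 and RNU4-2, and the other 6 were not tested. RNU4-1 had a log2 difference of -1.97 (SE 1.52, limma adjusted p = 0.304), which did not pass. RNU4-2 had -4.23 (SE 1.24, limma adjusted p = 0.0128). In this comparison 44.1% of the 24647 genes tested were called, and 36.4% were called lower in EVs. RNU4-2 entered the test through the cells alone, with 7 of 9 cell libraries above 0 against 2 of 9 EV libraries, so a lower value in EVs was built into its entry and nothing is read from its p. The median log2 difference of all genes was -0.61, and the sizes given here depend on the value of 1 added before the logarithm, since most EV values are 0.

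RNU4-1 by itself did not pass, and only sums of it with other copies did. With the pseudogene copies added the log2 difference was -4.95 (limma adjusted p = 0.00576), and with RNU4-1 and RNU4-2 summed it was -4.51 (limma adjusted p = 0.00885). What was added was itself lower in EVs. RNU4-2 was above 0 in 7 of 9 cell and 2 of 9 EV libraries, and the U4 copies had medians of 575.8 TPM in cells and 0 in EVs. Nothing is read about RNU4-1 from these p-values.

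Neither U4 gene was called in either knockout. In EVs RNU4-1 alone was tested, with a log2 difference of 4.19 for ATG7-/- against wild type (SE 1.98, limma adjusted p = 0.686). For ATG12-/- EVs against wild-type EVs it was 2.04 (SE 1.98, limma adjusted p = 0.836). The EV comparisons called 0.141% of 17076 genes for ATG7-/- and 0.105% for ATG12-/-, so few genes of any kind passed. RNU4-2 was above 0 in 2 EV libraries only and was not tested there. Wild-type EVs were at 0 for both genes, and RNU4-1 entered the EV fit through 3 knockout libraries, so its log2 differences depend on the value of 1 added and bound no fold change.

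In cells RNU4-2 had a log2 difference of 1.69 for ATG7-/- against wild type (SE 2.47, limma adjusted p = 0.783) and -0.49 for ATG12-/- (SE 2.47, limma adjusted p = 0.948). RNU4-1 had -0.28 for ATG7-/- cells (SE 2.89, limma adjusted p = 0.979) and -2.77 for ATG12-/- cells (SE 2.89, limma adjusted p = 0.691). The cell comparisons called 0.2% and 0.134% of 22471 genes, the first for ATG7-/- and the second for ATG12-/-. The standard errors are larger than most of these differences, and leaving out 1 library turned the sign of 3 of the 4, all but RNU4-1 in ATG12-/- cells. RNU4-1 in ATG7-/- cells became 1.66 without the second wild-type replicate, 0.25 without the third, and 2.06 without the second ATG7-/- replicate. RNU4-2 in ATG7-/- cells became -0.87 without the third wild-type replicate. RNU4-2 in ATG12-/- cells became 0.85 or 0.73 without the first or second wild-type replicate, and 1.83 without the second ATG12-/- replicate. These p-values do not show that the groups are alike.

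Whether the EV-to-cell difference itself changed with the genotype was tested as an interaction. For ATG7-/- against wild type it was 4.49 for RNU4-1 (SE 3.72, limma adjusted p = 0.783) and 2.55 for RNU4-2 (SE 3.04, limma adjusted p = 0.864), with 0.284% of 24647 genes called. For ATG12-/- it was 4.95 for RNU4-1 (SE 3.72, limma adjusted p = 0.702) and 0.68 for RNU4-2 (SE 3.04, limma adjusted p = 0.967), with 0.268% called. The second turned to between -1.63 and -0.55 without the second ATG12-/- cell library or without the first or second wild-type cell library. All of the comparisons of ATG7-/- and ATG12-/- share the wild-type libraries.

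The other major spliceosomal snRNAs give a point of reference for U4 and U5. RNU1-1, a gene of U1, which recognises the 5′ splice site, was at 251, 0 and 404 TPM in ATG7-/- EVs, at 242, 717 and 121 TPM in ATG12-/- EVs and at 612, 2844 and 1016 TPM in wild-type EVs. Its EVs averaged 690 ± 868 TPM and its cells 280 ± 207 TPM (SD, n = 9 each). RNU2-1, a gene of U2, which binds the branch point, averaged 182 ± 102 TPM in EVs and 204 ± 189 TPM in cells (SD, n = 9 each). RNU1-1, RNU2-1 and the U1 variant RNVU1-7 were the 3 genes of 10 in the table that could be tested, and none was called between EVs and cells, with log2 differences of 0.61, 0.25 and 1.56. RNVU1-7 averaged 698.5 TPM in EVs and 266 TPM in cells, close to RNU1-1. Stretches shared between copies are not given for these genes, and whether RNU1-1 and RNVU1-7 are separate signals was not tested. RNU1-1 was above 0 in 8 of 9 EV libraries and RNU2-1 in 9 of 9, where U4 was above 0 in 3 and U5 in 0. The difference between U4 and these genes was not itself tested.

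The mRNAs of the proteins that build and carry snRNAs were measured in most libraries, though several were at 0 in most EV libraries, and part of them differed between EVs and cells. Among the Sm core proteins, which form the ring on the RNA, 3 of 7 tested were called higher in EVs and 2 lower, with a median log2 difference of 1.01. SNRPD2 averaged 120 ± 53.1 TPM in EVs and 19.4 ± 9.20 TPM in cells (SD, n = 9 each), a log2 difference of 2.29 (SE 0.21, limma adjusted p = 1.62e-06), and SNRPB was higher by 1.39. SNRPF was at 0 in every EV library and at up to 3.21 TPM in cells, so it entered the test through the cells alone and its place among the lower ones rests on that. SNRPG, above 0 in 4 of 9 EV libraries and 9 of 9 cell libraries, had -2.19. Of the LSm proteins, which bind U6 and U6atac, 2 of 6 were called higher in EVs and 0 lower, LSM2 by 1.61 and LSM4 by 1.67 on the log2 scale. With protein-coding scaling 2 were called higher and 2 lower.

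SNRPG was the one mRNA of these lists whose EV-to-cell difference was called as different with a genotype. It was at 18.7, 11.8 and 59.7 TPM in ATG7-/- EVs, at 0, 4.12 and 0 TPM in ATG12-/- EVs and at 0 in all 3 wild-type EV libraries. In cells it was at 26.7, 4.43 and 7.19 TPM in ATG7-/-, at 18.02, 11.19 and 16.05 TPM in ATG12-/- and at 17.29, 14.01 and 18.73 TPM in wild type. The ATG7-/- EVs lay above both other EV groups without overlap, while the cell groups overlapped. The interaction was 5.36 (SE 1.01, limma adjusted p = 0.041), and the EV comparison alone, 4.63, did not pass (limma adjusted p = 0.122). The interaction fit gave EVs and cells 1 shared spread, while the SE of SNRPG was 0.87 in the EV fit and 0.55 in the cell fit. The interaction passed in 14 of 28 other settings. Over all 28 it ran from 2.17 to 8.7 on the log2 scale, with limma adjusted p-values of 0.0121 to 0.149. Wild-type EVs were at 0, so its size depends on the value of 1 added and bounds no fold change. It was lost with a pseudocount of 10 and in the setting with sample weights and no trend, and when any of 11 single libraries was left out, at log2 differences of 4.70 to 5.55. These were all wild-type EV and wild-type cell libraries, replicates 1 and 3 of ATG7-/- EVs, replicates 2 and 3 of ATG7-/- cells and replicate 2 of ATG12-/- cells. It was lost with replicate number as a block, at an adjusted p of 0.0831.

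Proteins of the U1 and U2 particles had 4 of 15 mRNAs called higher in EVs and 3 lower, with a median of 0.60. Without scaling the counts were 7 and 1, and with protein-coding scaling 1 and 3. SF3B1, the U2 subunit that clasps the branch helix, averaged 332 ± 309 TPM in EVs and 37.8 ± 39.5 TPM in cells (SD, n = 9 each), a log2 difference of 2.61. SF3A1 and SF3B3 were higher by 0.88 and 0.61, calls that were lost when libraries were scaled to protein-coding RNA, and SF3A2 had -1.44. Proteins of U5 and of the U4/U6.U5 particle, the direct partners of U4 and U5, had 3 of 17 mRNAs called higher and 2 lower, with a median of -0.08. Without scaling the counts were 6 and 0, and with protein-coding scaling 2 and 5, so the balance turned with the scaling. SNU13, which binds the U4 5′ stem-loop, averaged 92.0 ± 27.9 TPM in EVs and 27.3 ± 9.98 TPM in cells (SD, n = 9 each), a log2 difference of 1.45. EFTUD2, the GTPase of the U5 particle, was higher by 2.00 and SNRNP40 by 1.06, the second lost under protein-coding scaling, while USP39 had -1.003, a call lost without scaling.

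Of the 8 mRNAs of the U11/U12 particle, none was called higher in EVs and 2 were called lower, with a median of 0.10, against 2 and 1 without scaling. SNRNP35, a U11 protein, had -0.90, a call lost without scaling, and ZRSR2, which recognises the 3′ splice site of minor introns, had -1.73, lost with a pseudocount of 10 (limma adjusted p = 0.0501). The machinery that transcribes snRNAs and forms their 3′ ends had 1 of 23 called higher and 4 lower, with a median of -0.07. INTS11, the endonuclease of the Integrator complex, had -1.08, SNAPC3, a subunit of the snRNA promoter factor, had -1.03, and ZC3H8 had -0.93, while INTS13 was higher by 2.17. The ZC3H8 call held in 15 of 27 other settings and was lost without scaling, with a pseudocount of 10 and without any of 10 single libraries, 6 of EVs and 4 of cells, at -0.91 to -0.77. With protein-coding scaling this list had 1 called higher and 6 lower. Factors of export, Sm ring assembly and return to the nucleus had 5 of 21 called higher and 1 lower, with a median of 0.14, against 4 and 4 with protein-coding scaling. The 4 with the smallest p were all of the methylosome or the SMN complex, which prepare and load Sm proteins. The SMN complex as a whole did not follow, since its mRNAs in the list other than STRAP lay at -1.10 to 0.65 and none was called. NCBP1 was the 1 called lower, at -2.44. CLNS1A averaged 61.5 ± 15.9 TPM in EVs and 9.56 ± 3.96 TPM in cells (SD, n = 9 each), a log2 difference of 2.34 (SE 0.25, limma adjusted p = 5.41e-06), WDR77 was higher by 2.07, PRMT5 by 1.77 and STRAP by 1.19.

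**Figure D4:**
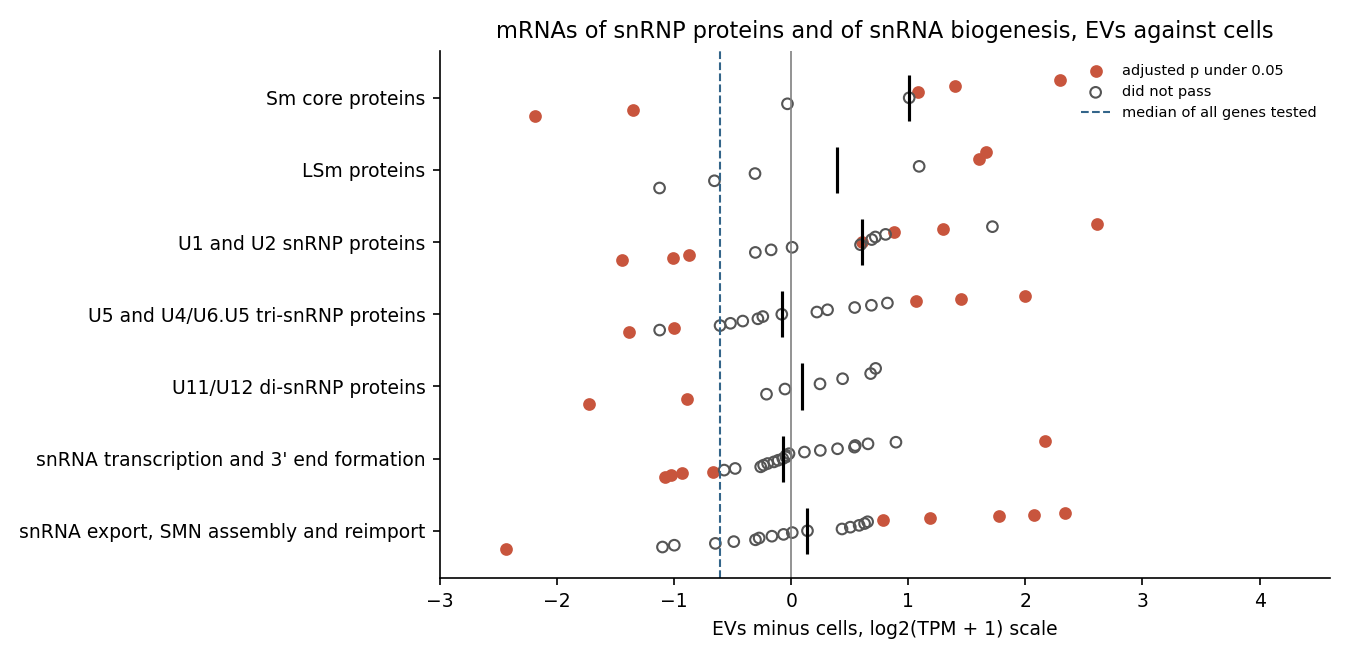
Log2 differences, EVs minus cells, of the tested mRNAs in 7 lists of snRNP and snRNA biogenesis proteins, 1 point a gene, filled where the limma adjusted p was under 0.05, with a bar at each list's median and a dashed line at the median of all genes. The list medians lie from -0.08 to 1.01, above the median of all genes at -0.61. Fewer transcripts were above 0 in EV libraries than in cell libraries, and the part of that in this gap was not tested.

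Against 7.66% of all genes called higher in EVs and 36.4% called lower, these lists held mRNAs in both directions, and no called direction turned under another scaling. The medians of 4 lists changed sign with the scaling, those of the U4/U6.U5 particle, the U11/U12 particle, transcription and export. In the 4 comparisons of a knockout with wild type, in EVs or in cells, none of the mRNAs in the 7 lists was called by limma. The smallest adjusted p-values, with the log2 differences, were 0.122 for SNRPG (4.63) in ATG7-/- EVs and 0.333 for SNRPD2 (1.37) in ATG12-/- EVs. In cells they were 0.138 for SNRPC (1.26) in ATG7-/- and 0.103 for INTS11 (0.74) in ATG12-/-.

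Some noncoding RNAs of the nucleus and cytoplasm were above 0 in every library. RPPH1, RN7SK and RN7SL1 were among them, each above any value of a single U4 or U5 gene. Others of these lists were low or at 0 in every library. RPPH1, the RNA of RNase P, was at 4757, 4318 and 3571 TPM in ATG7-/- EVs, at 4026, 4868 and 4785 TPM in ATG12-/- EVs and at 10330, 13560 and 11620 TPM in wild-type EVs. Both knockouts lay below wild type without overlap, with log2 differences of -1.39 for ATG7-/- (limma adjusted p = 0.00729) and -1.30 for ATG12-/- (limma adjusted p = 0.014). RN7SK, which restrains the elongation factor P-TEFb, was lower in ATG7-/- EVs, with -1.03 (limma adjusted p = 0.0232) and had -0.85 in ATG12-/- EVs (limma adjusted p = 0.068). The RPPH1 call in ATG12-/- EVs was lost without replicate 3 of wild-type EVs or replicate 1 or 2 of ATG12-/- EVs, at -1.35 to -1.22. The RN7SK call in ATG7-/- EVs was lost without replicate 2 or 3 of wild-type EVs or any replicate of ATG7-/- EVs, at -1.08 to -0.93, and all 3 calls were lost in the setting with sample weights and no trend. Both were lost without a filter, at adjusted p-values of 0.0664 for RPPH1 in ATG12-/- EVs and 0.0888 for RN7SK in ATG7-/- EVs, and the first also with replicate number as a block, at 0.0536. In the interactions RPPH1 had -2.03 for ATG7-/- (limma adjusted p = 0.0482) and -2.39 for ATG12-/- (limma adjusted p = 0.0155), and RN7SK had -1.46 for ATG7-/- (limma adjusted p = 0.0423). These combine lower values in EVs with higher ones in cells that were not called. Against wild-type cells RPPH1 had 0.89 in ATG7-/- cells (limma adjusted p = 0.336) and 1.41 in ATG12-/- cells (limma adjusted p = 0.176). RN7SK had 0.69 in ATG7-/- cells (limma adjusted p = 0.295). The ATG7-/- interactions passed in 8 of 28 other settings for RPPH1 and 11 of 28 for RN7SK, the ATG12-/- one of RPPH1 in 26 of 28. Between EVs and cells, 3 of 6 nuclear noncoding RNAs tested, from 8 listed, were called higher and 1 lower, which became 1 and 2 with protein-coding scaling. Of the cytoplasmic ones 9 were listed and 5 tested, with 3 called higher and none lower. Of all genes 7.66% were called higher and 36.4% lower. RN7SL1, the signal recognition particle RNA, was higher in EVs by 1.35. The other snRNA-type genes, pseudogene copies included, summed to 16650 to 39460 TPM in EV libraries and 21000 to 29110 TPM in cell libraries, so U4 and U5 were a small part of the snRNA signal. In EVs these sums were 32490 to 39460 TPM in wild type, 16650 to 17300 TPM in ATG7-/- and 19710 to 21340 TPM in ATG12-/-. Wild type thus lay above both knockouts without overlap. In cells wild type was also highest, at 26090 to 29110 TPM against 21000 to 24630 TPM in the knockouts. These differences were not tested.

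One gene had enough values for its pattern to be compared with others, RNU4-2, and its likeness was measured as Pearson's r of log2(TPM + 1) over the 18 libraries among 16893 genes. With pseudogenes and genes of clone-style names such as AC012447.1 left out, the 5 most alike were MSMO1 (0.84), LHB (0.83), MT-TN (0.81), LINC00682 (0.80) and INHA (0.80). MT-TN, a mitochondrial transfer RNA, ran from 0 to 633.5 TPM in EVs and from 396.9 to 1368 TPM in cells. LHB ran from 0 to 11.7 TPM in EVs and from 5.63 to 16.3 TPM in cells. All 5 had an EV median of at most 0.38 TPM, below their cell median. The libraries share the contrast of EVs with cells and its lower detection, so the coefficients are a description.

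The targeted genes and the identity of the cells were read once as checks on the labels. ATG7 was at 15.6, 13.5 and 11.2 TPM in ATG7-/- EVs and 19.4, 14.9 and 13.3 TPM in wild-type EVs, and the cells of both overlapped as well, so its RNA level does not check that label. ATG12 was at 0, 0.858 and 0 TPM in ATG12-/- EVs and 0.844, 9.54 and 22.6 TPM in wild-type EVs, which overlap, and in cells at 6.71, 9.18 and 5.18 TPM against 10.2, 7.61 and 13.5 TPM. The markers listed for HEK293T-like cells, VIM, KRT8, KRT18, CDH2, PAX2 and LHX1, had mean values above 0 in EVs and in cells. PAX2 was above 0 in 4 of 9 EV and 8 of 9 cell libraries, KRT18 in 7 and 7, and LHX1 in 5 and 7. In cells VIM and KRT8 averaged 23.1 and 97.9 TPM, while KRT18, CDH2, PAX2 and LHX1 averaged 0.95 to 1.94 TPM, below COL1A1. Of 6 markers of other cell types, CD3E, HBB and ALB were listed at 0 in all 18 libraries. COL1A1, of fibroblasts, was above 0 in all 18, at 9.32 ± 6.83 TPM in EVs and 7.23 ± 4.76 TPM in cells (SD, n = 9 each). PTPRC, of leukocytes, was above 0 in 2 EV and 9 cell libraries, at up to 5.79 TPM in EVs and 2.60 TPM in cells, and PECAM1, of endothelium, in 6 EV and 9 cell libraries, at up to 0.76 TPM in EVs and 1.36 TPM in cells. The part of such RNA in the results was not tested. A strand question bears on every level given here. AC006064.4, which lies opposite GAPDH on the other strand, stood at 11740 ± 610 TPM in EVs and 3488 ± 506 TPM in cells, while GAPDH itself stood at 568 ± 110 TPM in EVs and 84.7 ± 23.9 TPM in cells (SD, n = 9 each). If reads were assigned to the wrong strand, the values of the snRNA genes and of every other gene given here measure the opposite strand. The 2 cases cannot be told apart here.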

How the data were processed

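The deposited table gives TPM per transcript, made by the authors. Salmon 0.14 and DESeq2 appear in the submitters' processing notes, without a role. For genome build, annotation and strand setting, nothing is given in the sources used here. Transcripts were matched by identifier to GENCODE 29 (202941 of 203027; the 86 unmatched held at most 0.0384% of a library) and summed to genes. Depth is unknown. TPM were scaled by median of ratios, and log2(TPM + 1) was tested for genes that reached 1 TPM in 3 or more fitted libraries, with limma 3.58.1 in R 4.3.3 (trend, Benjamini-Hochberg over all genes, threshold 0.05), checked first on simulated data. Separate fits used the 9 EV and the 9 cell libraries, so the spread could differ between them. EVs against cells and the interactions used all 18, and their p-values assume 1 spread per gene shared by EVs and cells. Tables were prepared with Python 3.11.15, pandas 2.3.3 and matplotlib 3.10.9. The labels call replicates biological; nothing says that a number links samples, and same-numbered libraries did not deviate together. The snRNA genes and the lists were chosen with earlier results of these data known. Named list genes were the called ones, at most 4 a list by smallest p, with NCBP1 named besides. Otherwise they were the 2 with the smallest p, of which 1 per knockout comparison is printed over the lists together. XIST was left out. Intervals were not computed because TPM hold no counts. Alternatives changed scaling, pseudocount, filter, weights, replicate block, libraries and the handling of copies. The U5 gene sequences are not reported here.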

Additional observations from a re-analysis of the deposited data

How the results depend on the processing

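RNU4-2 in EVs against cells lay between -6.07 and -2.42 on the log2 scale over 28 alternatives, a direction that its entry through the cells fixed. The number of snRNA genes called there was 1, or 0 without trend and with sample weights, and 2 with pseudogene copies added. With RNU4-1 and RNU4-2 summed (a setting chosen after seeing the data) the same sum stood for both genes, so its 2 calls are 1 result. Leaving out 1 library gave 1 gene called in every case. Neither U4 gene was called in any knockout comparison under any alternative that gave a value. RNU4-2 in ATG7-/- cells had 1.69, which turned to -0.425 with pseudogene copies and -0.25 with U4 summed. Without single libraries RNU4-1 in ATG7-/- cells ran from -2.75 to 2.06, RNU4-2 in ATG7-/- cells from -0.871 to 3.02, RNU4-2 in ATG12-/- cells from -3.04 to 1.83, and the ATG12-/- interaction of RNU4-2 from -1.63 to 3.35. Leaving out any of the 3 EV libraries that list RNU4-1 above 0 takes it below the filter, so those cases give no value.

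Counts of all genes called were less stable, and the causes were not tested. For ATG7-/- EVs the 24 calls became 14 with a pseudocount of 10, 8 without a filter and 5 to 21 without single libraries. For ATG12-/- EVs the 18 became 11 with protein-coding scaling, 7 with a pseudocount of 10, 5 without a filter, 4 with weights and no trend, and 5 to 18 without single libraries. For ATG7-/- cells the 45 became 21 with a pseudocount of 10, 26 with a filter of 5 TPM and 5 to 53 without single libraries, and for ATG12-/- cells the 30 became 16 and 13 to 44 in the first and last of these. The ATG7-/- interaction (70) gave 45 unscaled, 32 with a filter of 5 TPM, 27 with weights and no trend, and 26 to 81 without single libraries. The ATG12-/- interaction (66) gave 29 with weights and no trend, and 26 to 89. EVs against cells gave 9797 to 10602 without single libraries. With the replicate block the counts were 9 and 3 in ATG7-/- and ATG12-/- EVs, 13 and 12 in cells, and 45 for the ATG7-/- interaction; correlations of same-numbered libraries were -0.0336 to 0.0472, and the block changed no call on an snRNA gene, and of the list genes named it ended the SNRPG interaction (adjusted p 0.0831), the RN7SK and RPPH1 interactions of ATG7-/- (0.0542 and 0.0844) and RPPH1 in ATG12-/- EVs (0.0536).

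The share of calls that were higher was 17.4% for EVs against cells, 25.1% unscaled and 9.2% with protein-coding scaling. For ATG12-/- EVs it was 61.1%, 52.6% unscaled and 36.4% with protein-coding scaling, and for the ATG12-/- interaction 69.7%, 47.7% unscaled and 57.1% with protein-coding scaling. The median of all genes in EVs against cells was -0.607, -0.471 unscaled and -0.83 with protein-coding scaling. Unadjusted p-values under 0.05 numbered 1265 and 1356 genes in the EV comparisons and 3241 and 3360 in cells. Depth is unknown in TPM, and most snRNA values are 0.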
